A study of Mus musculus with 8 samples.

Results

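Milk protein genes and their secretory companions were followed as a group of 10 genes in mouse mammary tumor organoids with and without SOX4, a transcription factor of the SOX family. The group was chosen by name, with earlier results of these data known, and holds the caseins Csn1s1, Csn2 and Csn3, the whey protein genes Wap, Lalba and Ltf, the small WAP-domain genes Wfdc18, Wfdc13 and Wfdc2, and Pglyrp1. All 10 were among the 38293 genes listed for the bulk libraries, 9 of them with at least 1 read, and 9 had a row among the 15150 genes of the single-cell libraries, where Lalba had none. Because values of the knockout contrast were known when the genes were chosen, their differences between genotypes are given below as a description, without a test.

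The organoids came from PyMT mammary tumors of MMTV-PyMT; MMTV-Cre; Ecadherin-mCFP mice, in which the MMTV promoter drives both the viral oncogene and Cre in mammary epithelium, and all groups share this background. Bulk RNA-seq covered 2 control lines (WT1 and WT3) and 3 SOX4 knockout (SOX4KO) lines (H7, M4 and H4), and plate-based single-cell RNA-seq covered 1 control line (GR17) and 2 SOX4KO lines (GR18 and GR19). Every line had been passaged as single cells and kept for 4 days in medium with B27 supplement and FGF2, and prolactin is not named among the additions. Lines are separate cultures of 1 tumor model, so p-values measure the spread between lines and not between animals, and the labels do not say which bulk line corresponds to which single-cell line.

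Caseins and whey proteins are made by luminal alveolar cells of the mammary gland. Prolactin binds its receptor there and activates JAK2 and STAT5, which act on milk genes together with ELF5 and glucocorticoid signalling. Caseins form the micelles that carry calcium, whey proteins stay in solution, and lactoferrin, WAP-domain proteins and peptidoglycan recognition protein belong to the antibacterial and protease-inhibiting side of mammary secretions.

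The knockout lines carry indels in Sox4, so the transcript can remain and its level checks the labels only weakly. Sox4 stood at 295 and 374 CPM (counts scaled to a common library total by TMM) in the control lines and at 199, 179 and 299 CPM in the SOX4KO lines, which overlapped (log2 fold change −0.57 ± 0.25 SE, edgeR quasi-likelihood test, adjusted p = 0.277). In single cells, Sox4 stood at 118 CPM of the summed UMIs in control and at 82.5 and 110 CPM in the SOX4KO libraries.

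Bulk libraries held 3050323 to 4678497 reads on genes, and the single-cell libraries held 7714119 to 8296953 UMIs in 362 to 369 cells, at medians of 19845 to 21876 UMIs per cell. In bulk, all 7 tested luminal keratin and adhesion markers had a negative fold change in SOX4KO and none was called by edgeR. DESeq2 called 1 of them lower, and 1 had an unadjusted p under 0.05 in edgeR. Of 8 tested basal markers, 2 were called higher (Sparc and Oxtr), against 4.1% of all tested genes. Of 10 cell cycle markers, 6 were called lower, against 2.17% of all tested genes. The basal markers summed to 1278 to 2103 CPM in control and 2378 to 7008 CPM in SOX4KO, and the luminal markers to 2728 to 2931 CPM and 1838 to 2514 CPM. The part of these shifts in the milk gene values was not tested. Single cells did not show the same shifts throughout. In GR17, GR18 and GR19, Krt5 stood at 1867, 1466 and 519 CPM and Krt14 at 1586, 1662 and 1019 CPM. Sparc stood at 593, 1152 and 595 CPM and Oxtr at 0.130, 5.24 and 5.54 CPM. Among luminal keratins, Krt8 stood at 581, 709 and 884 CPM and Krt18 at 281, 228 and 312 CPM. In bulk tissue or organoids, fewer cells of a type and less RNA per cell cannot be told apart.

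The promoters of both caseins with a RefSeq entry are shown because the neighbouring genes Csn1s1 and Csn2 differed so much in detection, and that of Wap because it is the classical whey gene and was silent here. RefSeq (GRCm38.p6) gave a promoter for 8 of the 10 genes, and Csn3 and Wfdc13 were without one. Each line holds the 250 bases before the RefSeq start site, 5′ to 3′ on the gene's strand. The windows lie at chr5:87665958-87666207 on the plus strand for Csn1s1, at chr5:87699426-87699675 on the minus strand for Csn2 and at chr11:6638650-6638899 on the minus strand for Wap. The Csn2 window overlaps the span that GENCODE gives the gene (87692624 to 87699630), so its distances hold for the RefSeq start alone. Capitals mark matches on either strand to the STAT motif TTCNNNGAA, the SOX motif AACAAAG and the ETS motif GGAAGT, and no marked matches overlap.
Csn1s1: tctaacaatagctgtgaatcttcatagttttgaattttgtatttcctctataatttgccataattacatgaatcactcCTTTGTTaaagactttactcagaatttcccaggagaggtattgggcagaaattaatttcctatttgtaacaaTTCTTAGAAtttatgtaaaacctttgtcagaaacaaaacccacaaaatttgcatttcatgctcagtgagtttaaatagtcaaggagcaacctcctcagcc
Csn2: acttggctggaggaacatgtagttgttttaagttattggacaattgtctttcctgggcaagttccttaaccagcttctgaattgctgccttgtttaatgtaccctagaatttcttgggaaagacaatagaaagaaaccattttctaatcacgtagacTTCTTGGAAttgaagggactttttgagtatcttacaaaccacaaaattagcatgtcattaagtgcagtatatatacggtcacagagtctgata
Wap: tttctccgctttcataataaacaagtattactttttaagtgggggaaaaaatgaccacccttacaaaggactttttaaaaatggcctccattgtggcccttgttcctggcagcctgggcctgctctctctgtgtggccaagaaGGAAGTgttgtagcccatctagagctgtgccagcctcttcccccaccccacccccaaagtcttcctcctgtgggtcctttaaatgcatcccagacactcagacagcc

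The STAT motif was found in the Csn1s1 and Csn2 promoters, its first base 100 and 93 bases before the start, and in none of the other 6. Among all 32851 promoter entries of the same length, 7.02% held it. The SOX motif was found in Csn1s1 alone among the 8, 172 bases before the start, against 5.03% of all promoters, and the ETS motif in Wap and Wfdc18, against 19.7% of all promoters. Such matches describe letters in these windows and not binding.

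Of the 10 genes, 7 passed the filter on low counts in bulk (edgeR filterByExpr, 11682 genes tested), which Csn2, Wap and Lalba did not. By the rule used for all genes (adjusted p under 0.1), 3 of the 7 were called higher, Csn1s1, Wfdc13 and Wfdc2, and none lower. Of all tested genes 6.27% were called, 4.1% higher and 2.17% lower, but since the genes were chosen with this contrast known, nothing is read from their count. A gene that is nearly silent in control passes such a filter only through the group where it is high, as Csn1s1 and Wfdc13 did.

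**Figure D1:**
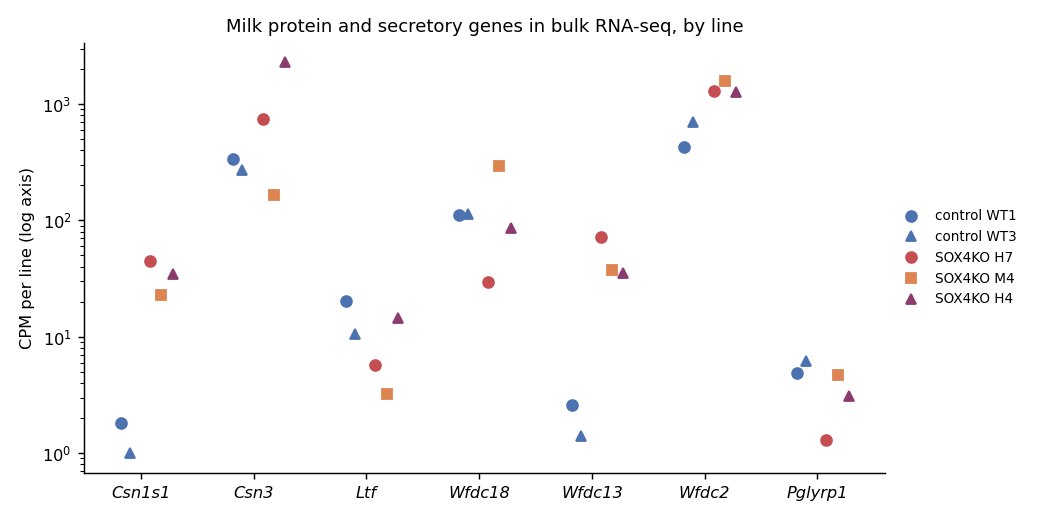
CPM on a log axis for the 7 tested genes, 1 point per organoid line, control lines in blue and SOX4KO lines in red, orange and purple. Csn1s1, Wfdc13 and Wfdc2 were higher in every SOX4KO line than in both control lines, Csn3 was spread 13.8-fold among the SOX4KO lines and overlapped control, and Pglyrp1 was lower in every SOX4KO line.

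Csn1s1, which encodes alpha-S1 casein (ENSMUSG00000070702, chromosome 5, 87666208 to 87682578 in GRCm38), was the casein that separated the genotypes. It was counted at 1.81 and 0.996 CPM in the control lines (7 and 5 reads) and at 44.9, 22.7 and 34.7 CPM in the SOX4KO lines (172, 63 and 145 reads). All 3 SOX4KO lines lay far above both control lines and within 1.98-fold of each other. The log2 fold change was 4.62 ± 0.45 (SE, 2 against 3 lines), or 24.6-fold.

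Csn3, which encodes kappa casein that stabilises the micelle (chromosome 5, 87925579 to 87932665), was the casein with the highest level in the bulk lines. Its levels were 337 and 271 CPM in control and 741, 165 and 2287 CPM in SOX4KO. The line M4 lay below both control lines while H7 and H4 lay above them, so the groups overlapped. The log2 fold change was 1.81 ± 0.86 (SE), and it was 0.58 without H4. Csn3 is overlapped on the opposite strand by 1700066N21Rik, and whether the counting used strand is not given in the sources used here, so reads of that transcript could be included.

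Csn2, which encodes beta casein and lies beside Csn1s1 (chromosome 5, 87692624 to 87699630, minus strand), had 0 reads in both control lines and 5, 1 and 0 reads in H7, M4 and H4. Wap (chromosome 11, 6635482 to 6638637) had no read in any line. Lalba, the regulatory subunit of lactose synthase (chromosome 15, 98480400 to 98482721), had 1 read, in WT1. The 3 genes that are among the most abundant messages of lactating tissue were thus at or near the floor in both genotypes.

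Among the small WAP-domain genes, Wfdc13 (chromosome 2, 164685107 to 164687706) resembled Csn1s1 in bulk. It stood at 2.59 and 1.39 CPM in control and at 72.3, 37.8 and 35.4 CPM in SOX4KO. The SOX4KO lines again lay well above both control lines, with a log2 fold change of 4.63 ± 0.48 (SE). Wfdc2, a secreted WAP-domain protein of glandular epithelia that lies close by on chromosome 2 (164562413 to 164568510), stood at 428 and 696 CPM in control and at 1302, 1572 and 1276 CPM in SOX4KO. This was a smaller difference, with a log2 fold change of 1.30 ± 0.26 (SE), and all SOX4KO lines were above both control lines and within 1.23-fold of each other.

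Wfdc18, an extracellular proteinase inhibitor of the mammary gland (chromosome 11, 83709015 to 83711348), gave no direction. The control lines stood at 112 and 113 CPM, while the SOX4KO lines stood at 29.5, 296 and 85.3 CPM. H7 and H4 lay below both control lines and M4 above them, and the log2 fold change of 0.27 ± 0.73 (SE) became −0.97 when M4 was left out.

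Ltf and Pglyrp1 encode antibacterial proteins, lactoferrin that binds iron (chromosome 9, 111019271 to 111042767) and a protein that binds peptidoglycan (chromosome 7, 18871331 to 18890459). Ltf stood at 20.2 and 10.6 CPM in control and at 5.74, 3.24 and 14.6 CPM in SOX4KO. The groups overlapped, since H4 exceeded WT3, and the log2 fold change was −0.91 ± 0.55 (SE). Pglyrp1 stood at 4.92 and 6.17 CPM in control and at 1.30, 4.68 and 3.11 CPM in SOX4KO, so that all SOX4KO lines were lower, with a log2 fold change of −0.91 ± 0.52 (SE). The counts behind it were small, 19 and 31 reads in control and 5, 13 and 13 reads in SOX4KO.

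Of the 7 tested genes, 3 had all SOX4KO lines above both control lines and 1 had all below, so that 4 did not overlap, against 36.9% of all tested genes. Over all tested genes, 19% had all SOX4KO lines above both control lines and 17.9% had all below. The median log2 fold change was 1.30 over the 7 genes and 0.0087 over all genes tested. Since the genes were chosen with this contrast known, nothing is read from these counts or from the median.

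Per kilobase of annotated exon, the order of mean levels in the control lines was Wfdc2 (493 CPM per kb), Wfdc18 (92.2), Csn3 (73.2), Ltf (4.46), Pglyrp1 (3.02), Wfdc13 (1.85) and Csn1s1 (0.225). In the SOX4KO lines it was Wfdc2 (1214 CPM per kb), Csn3 (256), Wfdc18 (112), Wfdc13 (45.2), Csn1s1 (5.46), Ltf (2.28) and Pglyrp1 (1.65). Csn3 and Wfdc18 could not be ordered beyond their spread among SOX4KO lines. In the bulk SOX4KO lines, Csn1s1 thus stayed far below Wfdc2 and Csn3 per length of exon, with all annotated exons counted (6247 bases for Csn1s1). The order differed by UMIs in single cells. In GR18, Csn1s1 (689 CPM) exceeded Wfdc2 (573 CPM) and Csn3 (391 CPM). In GR19, Csn1s1 (706 CPM) exceeded Wfdc2 (334 CPM) but not Csn3 (1754 CPM).

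Other genes of milk secretion were read against the 4.1% of all tested genes called higher and the 2.17% called lower. Of 8 tested genes for other milk proteins, 6 had a positive fold change, and 2 were called higher and 1 lower in SOX4KO, with a median log2 fold change of 0.55 against 0.0087 over all genes. DESeq2 called 4 of the 8 higher and none lower. Spp1, which encodes the matrix and milk protein osteopontin, rose from 175 and 77.5 CPM in control to 1095, 1410 and 4854 CPM in SOX4KO (log2 fold change 4.28 ± 0.76 SE, edgeR adjusted p = 0.0298). It was 3.31 without H4, 3.81 without WT3 and 4.98 without WT1, and the call was lost without either control line. Trf, which encodes transferrin, rose from 850 and 967 CPM to 2350, 2286 and 1875 CPM (1.26 ± 0.22, edgeR adjusted p = 0.0275). Pigr, the receptor that carries immunoglobulin A into milk, fell from 255 and 221 CPM to 74.1, 11.5 and 58.2 CPM (−2.29 ± 0.54, edgeR adjusted p = 0.0636), a call that DESeq2 did not make. In single cells, Spp1 stood at 355, 492 and 937 CPM in GR17, GR18 and GR19, or 1.38-fold and 2.64-fold above control. Trf stood at 2642, 3653 and 2526 CPM, with GR19 close to control. Pigr had 2, 17 and 15 UMIs, so the few UMIs seen went the other way from bulk.

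Lcn2 and Mfge8, the genes of lipocalin 2 and of the milk fat globule protein lactadherin, did not pass in edgeR. Lcn2 stood at 2167 and 2174 CPM in control and at 3156, 3146 and 5891 CPM in SOX4KO (log2 fold change 0.91 ± 0.32 SE, edgeR adjusted p = 0.185). Mfge8 stood at 1443 and 1577 CPM and at 1851, 2564 and 2985 CPM (0.71 ± 0.25, edgeR adjusted p = 0.188). DESeq2 called both higher. In single cells, Lcn2 stood at 2781, 5955 and 6264 CPM in GR17, GR18 and GR19, or 2.14-fold and 2.25-fold above control. Mfge8 stood at 474, 602 and 751 CPM.

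Of 9 tested genes of the milk fat globule and of lactose synthesis, 1 was called in each direction, with a median log2 fold change of 0.20. Btn1a1, which encodes butyrophilin of the milk fat globule membrane, fell from 50.5 and 17.1 CPM in control to 5.48, 5.76 and 2.87 CPM in SOX4KO (−2.85 ± 0.49, edgeR adjusted p = 0.0282). Without WT1, the higher control line, the log2 fold change was −1.88 and the call was lost, and without WT3 it was −3.44. Pgm1, an enzyme of sugar phosphate metabolism, rose from 74.6 and 61.9 CPM to 108, 132 and 120 CPM (0.81 ± 0.18, edgeR adjusted p = 0.0561).

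Of 13 tested genes of prolactin signalling and alveolar regulation, none was called higher and 1 lower, with a median log2 fold change of 0.16. The gene called lower was Ehf, an epithelial ETS factor, which fell from 777 and 692 CPM in control to 268, 339 and 270 CPM in SOX4KO (−1.33 ± 0.19, edgeR adjusted p = 0.0146). DESeq2 called 2 of the 13 lower and none higher. At an unadjusted p under 0.05 in edgeR, none of the 13 was higher and 2 were lower.

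In bulk, the prolactin receptor and the factors that act directly on milk genes were not called. Prlr stood at 147 and 156 CPM in control and at 137, 104 and 273 CPM in SOX4KO (log2 fold change 0.19 ± 0.36 SE, edgeR adjusted p = 0.845). Stat5a stood at 28.7 and 23.9 CPM and at 24.5, 25.6 and 24.2 CPM (−0.09 ± 0.20, edgeR adjusted p = 0.871), and Stat5b gave −0.12 ± 0.23 (edgeR adjusted p = 0.849). Elf5, the ETS factor of alveolar cells, stood at 202 and 120 CPM in control and at 118, 18 and 172 CPM in SOX4KO (−0.63 ± 0.67, edgeR adjusted p = 0.693). In single cells, Prlr stood at 48.0, 99.4 and 134 CPM in GR17, GR18 and GR19, or 2.07-fold and 2.80-fold above control, and Elf5 at 10.5, 13.0 and 75.4 CPM. Stat5a stood at 6.35, 6.49 and 9.04 CPM and Stat5b at 13.0, 13.6 and 13.3 CPM. Ehf, lower in the bulk SOX4KO lines, stood at 72.1, 122 and 77.4 CPM.

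A single relative of the WAP-domain genes could be tested. Wfdc3 rose from 184 and 211 CPM in control to 393, 478 and 354 CPM in SOX4KO (1.05 ± 0.20, edgeR adjusted p = 0.0372). In single cells it stood at 18.1, 55.3 and 44.7 CPM in GR17, GR18 and GR19.

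**Figure D2:**
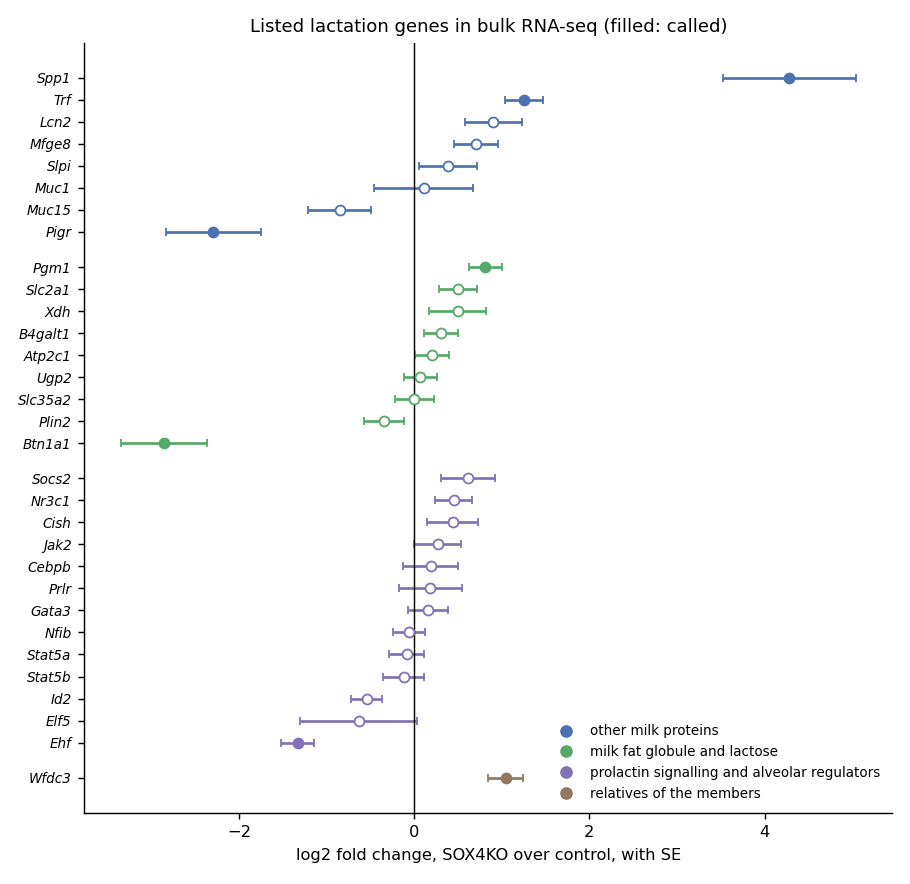
Log2 fold change of SOX4KO over control in bulk with its standard error for the tested genes of 4 lists, filled points for genes called at an adjusted p under 0.1. Spp1 lies farthest to the right at 4.28, Btn1a1 farthest to the left at −2.85, and Prlr, Stat5a and Stat5b lie close to 0.

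In single cells the genotypes were compared as summed UMIs, with 1 control library and therefore without a test. Intervals are exact 95% Poisson (levels) or binomial (shares) limits and cover counting error alone. Among 6303 genes with a mean of at least 20 CPM, 1.92% were at least 2-fold higher and 0.317% at least 2-fold lower in both SOX4KO libraries than in control, 2.24% in all. Of the 10 genes, 5 reached 20 CPM, and of those Csn1s1, Csn3 and Pglyrp1 were at least 2-fold higher in both and none was 2-fold lower in both. The genes were chosen with this contrast known, and Pglyrp1, at 15.2 CPM in control, reached the minimum only through the SOX4KO libraries, so nothing is read from the count. With 10 CPM added to each value, the log2 difference of Pglyrp1 was 0.99 in GR18, just under 2-fold.

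Csn1s1 stood at 50.0 CPM in GR17 (45.2 to 55.3), 689 CPM in GR18 (671 to 707) and 706 CPM in GR19 (688 to 724). Both SOX4KO libraries were alike and lay 13.8-fold and 14.1-fold above control. At least 1 UMI was found in 15.7% of control cells against 84.0% and 81.2% of SOX4KO cells. With every cell thinned to 5000 UMIs, these shares were 8.31% (5.68 to 11.7), 59.5% (54.2 to 64.5) and 61.2% (55.9 to 66.3).

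The control signal of Csn1s1 was concentrated in few cells, and the SOX4KO signal was spread over more cells. The 10 highest cells held 74.6% of its UMIs in GR17 against 33.1% in GR18 and 26.7% in GR19. These shares came from totals of 386, 5519 and 5856 UMIs and were not matched for total. Cells with 10 or more Csn1s1 UMIs numbered 7 of 369 in control, 115 of 369 in GR18 and 131 of 362 in GR19. The wells left out for low UMIs held 0, 3 and 5 Csn1s1 UMIs in GR17, GR18 and GR19, among 4513, 4341 and 5150 UMIs. The part of transcripts from outside the cell in these values was not tested.

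Csn3 stood at 101.2 CPM in GR17 (94.3 to 109), 391 CPM in GR18 (377 to 404) and 1754 CPM in GR19 (1726 to 1783). Unlike Csn1s1, it differed strongly between the SOX4KO libraries, as it did among the bulk SOX4KO lines. It was found in 26.3%, 68.3% and 95.03% of cells, or in 13.0% (9.73 to 16.9), 39.7% (34.7 to 45.0) and 75.4% (70.6 to 79.8) after thinning. The wells left out held 0, 1 and 18 Csn3 UMIs, and the part of such transcripts in these shares was not tested.

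Csn2 was seen in 0 of 369 control cells, which by the limit of 3 counts allows a share of up to 0.813% of cells with a UMI and sets no limit on cells that express the gene, and it had 59 UMIs in GR18 and 3 in GR19. Of the 59 UMIs, 56 came from a single cell, singled out after its value was seen, which also held 62 Csn1s1 UMIs and 1 Csn3 UMI among 17887 UMIs. That cell fell in cluster A and held 7 Krt5, 10 Krt14, 8 Krt8 and 6 Krt18 UMIs, which does not place it on either side of the keratin divide described below. Wap had 1 UMI, in GR19.

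Pglyrp1 stood at 15.2, 40.0 and 56.5 CPM in GR17, GR18 and GR19, and Wfdc18 at 30.3, 72.4 and 37.4 CPM. The thinned shares were 5.54%, 13.4% and 14.2% of cells for Pglyrp1 (3.42 to 8.43, 10.1 to 17.4 and 10.8 to 18.3) and 9.14%, 16.7% and 13.1% for Wfdc18 (6.38 to 12.6, 13.0 to 20.9 and 9.81 to 17.1). For Pglyrp1 the control interval lay apart from both others, and for Wfdc18 it overlapped that of GR19. Thinned to 2000 UMIs, the Pglyrp1 shares were 3.27%, 4.35% and 8.56%, with GR18 close to control. Before thinning the shares were 12.2%, 24.1% and 32.3% for Pglyrp1 and 22.8%, 37.9% and 31.8% for Wfdc18.

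Ltf had 8, 51 and 269 UMIs in GR17, GR18 and GR19, or 1.04, 6.37 and 32.4 CPM. In GR19 a single cell gave 29.4% of these UMIs and the 10 highest cells 76.6%. The highest cell held 79 Ltf, 12 Csn3 and 536 Lcn2 UMIs.

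Wfdc2 was the member found in nearly all control cells, and it was lower in the SOX4KO libraries. It stood at 818 CPM in GR17 (798 to 838), 573 CPM in GR18 (556 to 589) and 334 CPM in GR19 (322 to 347). Thinned shares were 92.0% (88.7 to 94.6), 78.9% (74.4 to 83.0) and 69.8% (64.8 to 74.5), and unthinned shares 99.7%, 96.7% and 95.03%. This direction was opposite to that in bulk, where every SOX4KO line was above both control lines. Pglyrp1 was also opposite, higher in both SOX4KO libraries and lower in every bulk SOX4KO line, and Ltf was higher in both libraries while its bulk lines overlapped. The bulk and single-cell libraries differ in library method and in what is counted, and may differ in line, which cannot be told apart.

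Wfdc13 had 0, 3 and 3 UMIs in GR17, GR18 and GR19, although in bulk it had 277, 105 and 148 reads in the SOX4KO lines. The difference between genotypes seen in bulk could therefore not be followed into single cells.

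**Figure D3:**
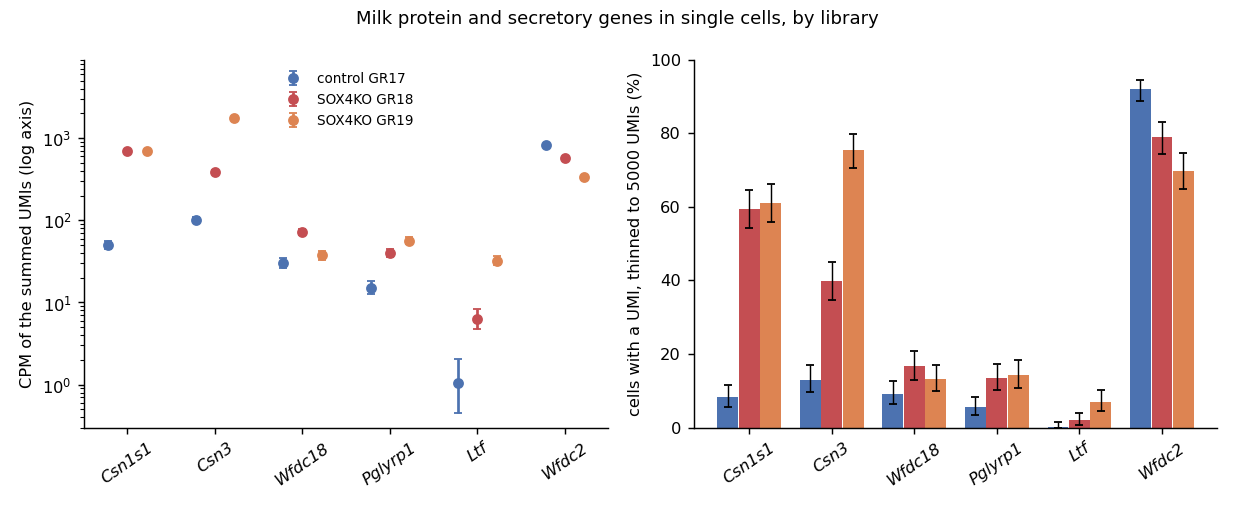
Left, CPM of the summed UMIs on a log axis with exact Poisson intervals. Right, percent of cells with at least 1 UMI after thinning to 5000 UMIs, with exact binomial intervals. Csn1s1 stands at 8.31% of control cells and at 59.5% and 61.2% of SOX4KO cells, and Wfdc2 at 92.0%, 78.9% and 69.8%.

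**Figure D4:**
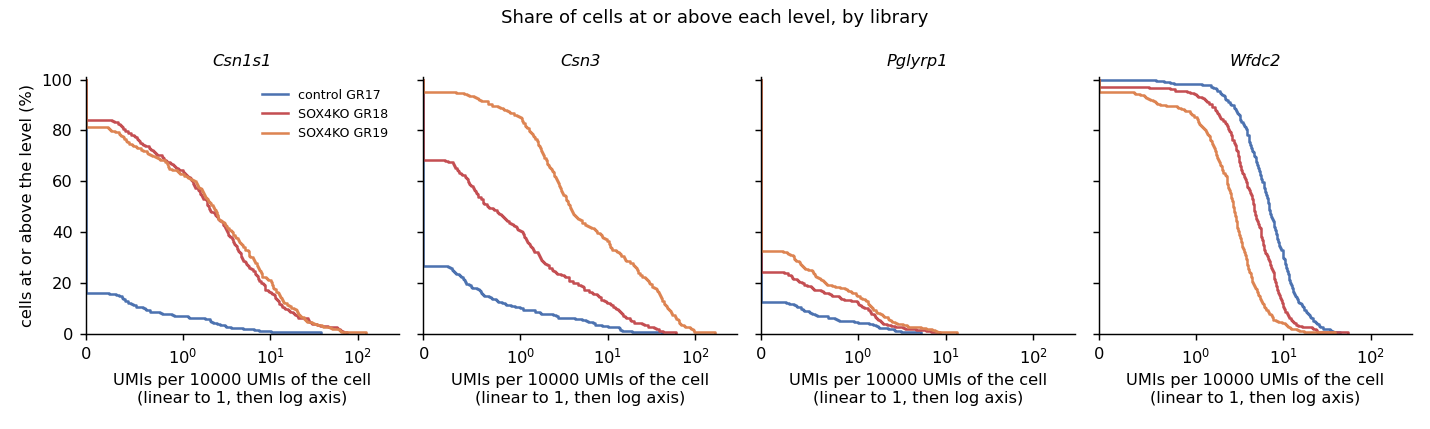
Percent of cells at or above each level of UMIs per 10000 UMIs of the cell, by library, on an axis that is linear up to 1 and logarithmic beyond. The Csn1s1 curves of GR18 and GR19 lie close together, the Csn3 curve of GR19 lies above that of GR18, and the control curve is lowest for Csn1s1, Csn3 and Pglyrp1 and highest for Wfdc2.

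Cells that held Csn1s1 or Pglyrp1 more often held Csn3 as well, which was not so for every pair of the group. Of control cells with a Csn1s1 UMI after thinning, 46.7% also had Csn3, against 9.97% of those without. In GR18 the shares were 49.8% and 25%, and in GR19 they were 82.6% and 64.0%. Cells with Pglyrp1 held Csn3 in 55%, 71.4% and 98.0% of cases, against 10.6%, 34.8% and 71.7% of cells without it. Cells with Wfdc2 held Csn3 in 13.0%, 41.3% and 74.8% of cases, against 13.8%, 33.8% and 76.9% of cells without it. The median cell held 1 of the genes in control and 2 in each SOX4KO library.

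Across the cells of a library, the genes most like each member were found by Pearson correlation of log-normalised values, which share the cell's depth and library and are given as a description (n = 369, 369 and 362 cells, 8835 genes compared). Genes were ordered by their lowest r over the 3 libraries, an order that single libraries need not share. By it Csn1s1 was closest to Csn3, at r = 0.47, 0.57 and 0.40 in GR17, GR18 and GR19, followed by Lcn2, Cd14, Car2 and Gabrp, although Lcn2 was higher in GR19 (0.47) and Cd14 in GR18 (0.573 against 0.567). Csn3 was closest to Lcn2, at 0.52, 0.58 and 0.68, followed by Pglyrp1, Car2, Fth1 and Cd14. Pglyrp1 was higher than Lcn2 in GR17 (0.541 against 0.522), and Fth1 in GR18 (0.588 against 0.582). Pglyrp1 was closest to Csn3, at 0.54, 0.48 and 0.49, followed by Lcn2, which was higher in GR18 and GR19 (0.49 and 0.59), Car2, Cldn7 and Cd14, which was higher in GR19 (0.50).

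Wfdc18 had weaker neighbours, with Cd14 first at 0.36, 0.43 and 0.42, then Cldn7, Ehf, Clu and Mgst1, although Ehf was higher in GR17 (0.40). Wfdc2 stood apart from the caseins. Its nearest genes were Tspan1, Trf, Mfge8, Chi3l1 and Krt18, with Trf at 0.55, 0.43 and 0.32, and its correlation with Csn3 was 0.0012 in control and 0.22 in both SOX4KO libraries.

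The correlation of Csn3 with the basal keratin Krt14 was −0.43, −0.60 and −0.69, and with Krt5 it was −0.33, −0.46 and −0.47. With the luminal keratins Krt8, Krt18 and Krt19 it was positive in all 3 libraries, reaching 0.27, 0.48 and 0.56 for Krt18, but with Krt7 it was −0.15, −0.20 and −0.20. With Elf5 it was 0.39, 0.25 and 0.42. With Mki67, a marker of cycling cells, it lay between −0.09 and 0.02, and with Sox4 between −0.08 and 0.03.

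Clustering without the 10 genes gave 7 clusters of 107 to 220 cells, lettered A to G by size. In clusters C and E, Krt8 and Krt18 together exceeded Krt5 and Krt14, and in the 5 others the reverse held. The other luminal markers did not all follow this divide. Krt19 and Cldn3 were higher in C and E, and Epcam, Cdh1 and Cldn4 overlapped. Krt7 was lower there, at 250 and 214 CPM in C and E against 436 to 575 CPM in the 5 others. Krt14 stood at 287 and 290 CPM in C and E against 1210 to 2760 CPM elsewhere, and Elf5 at 63.8 and 98.6 CPM against 3.32 to 24.8 CPM. The leading genes of C included Slc39a8, Mal2 and Car2 and those of E included Kit, S100a8 and Mlph, with cell cycle genes high in C (Mki67 301 CPM, Top2a 296 CPM) and low in E (Mki67 94.2 CPM, Top2a 19.9 CPM). Control cells made up 208 of 212 cells in B and 103 of 119 in F, and 9 of 220 in A, with none in D and G, so that these clusters may mark libraries and not cell types.

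Clusters C and E held 26.2% of all cells and 79.2% of all Csn1s1 and Csn3 UMIs, with Csn2 left out. They held 49, 107 and 132 cells in GR17, GR18 and GR19, or 13.3%, 29.0% and 36.5% of the cells. The Krt8 and Krt18 side was thus larger in both SOX4KO libraries, while luminal markers summed lower in the bulk SOX4KO lines. The share of a gene's UMIs in C and E depends on this share of cells as well as on its level. Within C and E, Csn1s1 stood at 263 CPM (235 to 294), 1473 CPM (1427 to 1521) and 1120 CPM (1086 to 1155). In the other clusters it stood at 10.9 CPM (8.51 to 13.7), 313 CPM (298 to 328) and 394 CPM (376 to 412). Csn1s1 was thus higher in SOX4KO on both sides of the keratin divide. Its level in the cells of other clusters in SOX4KO exceeded that in clusters C and E of control. The part of transcripts from outside the cell in these levels was not tested.

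Csn3 stood in C and E at 524 CPM (484 to 566), 952 CPM (915 to 990) and 3559 CPM (3497 to 3621), and in the other clusters at 23.6 CPM (20.05 to 27.7), 121 CPM (112 to 130) and 395 CPM (377 to 413). Cells of C and E held 80.3%, 79.1% and 87.2% of its UMIs in GR17, GR18 and GR19, against 81.6%, 69.4% and 68.2% of those of Csn1s1, so that both caseins were alike in control and Csn3 had the larger share there in both SOX4KO libraries.

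Cells of C and E, whose share of all cells also rose, held 59.8%, 84.1% and 88.9% of the Pglyrp1 UMIs in GR17, GR18 and GR19. It stood in C and E at 58.5 CPM (45.6 to 73.9), 104 CPM (91.5 to 117) and 117 CPM (106 to 129), and elsewhere at 7.21 CPM (5.30 to 9.59), 9.43 CPM (7.02 to 12.4) and 10.99 CPM (8.21 to 14.4), where the intervals overlapped. Wfdc18 stood at 104, 173 and 60.0 CPM in C and E and at 16.7, 24.0 and 20.3 CPM elsewhere, higher in C and E in every library, while GR18 lay above and GR19 below control within C and E.

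Wfdc2 was lower in the SOX4KO libraries in both groups of clusters. It stood at 1109 CPM (1050 to 1170), 802 CPM (768 to 838) and 389 CPM (369 to 410) in C and E, and at 764 CPM (743 to 786), 462 CPM (444 to 481) and 293 CPM (277 to 309) elsewhere. Csn2 apart, Wfdc2 was also the member with the smallest share of its UMIs in C and E, at 21.0%, 45.5% and 50.0% in GR17, GR18 and GR19. The share of cells in C and E rose as well, from 13.3% to 29.0% and 36.5%. The level of Wfdc2 was still higher in C and E than elsewhere in every library.

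**Figure D5:**
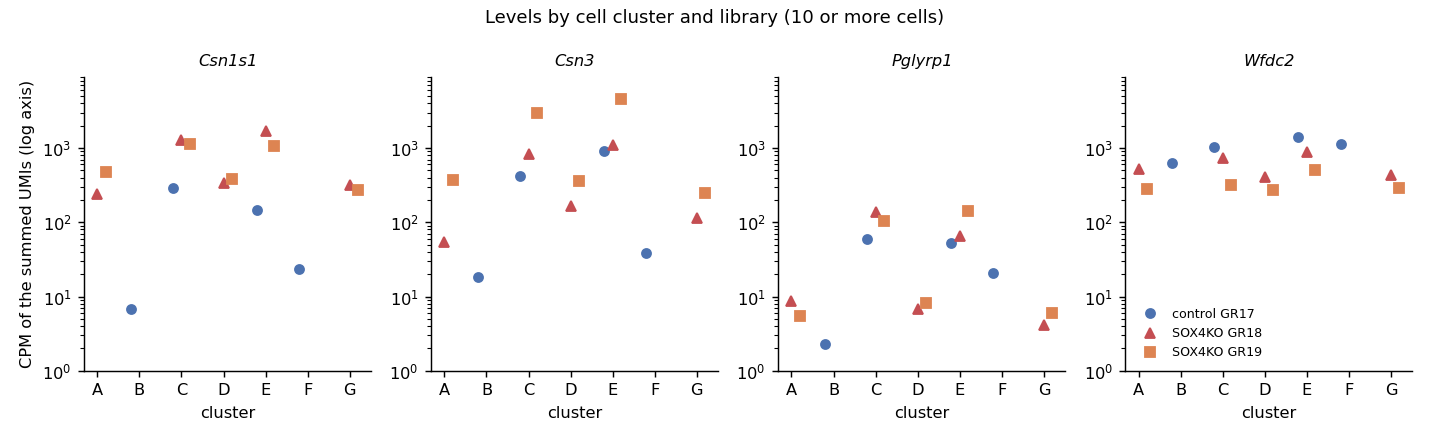
CPM of the summed UMIs on a log axis for each cluster and library with at least 10 cells. Csn1s1, Csn3 and Pglyrp1 are highest in clusters C and E in every library, the control cells of cluster B hold the lowest Csn1s1 and Csn3, and Wfdc2 is highest in cluster E in every library.

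Ltf, Pglyrp1 and Lcn2 are also made by neutrophils, so neutrophil markers were listed. In bulk, none of the 9 passed the filter, 6 had no read, and together they summed to 0 to 1.80 CPM per line. In single cells, 4 of the 9 had UMIs. S100a8 had 130, 878 and 290 UMIs in GR17, GR18 and GR19, and it stood at 107 and 243 CPM in clusters C and E against 3.53 to 13.0 CPM elsewhere. It was thus highest in the same clusters as Csn1s1, Csn3 and Pglyrp1. Across libraries it was highest in GR18, while Csn3, Ltf and Pglyrp1 were highest in GR19. Cxcr2 stood at 4.02, 4.74 and 6.15 CPM and Camp at 0.519, 0.125 and 1.33 CPM, and Elane was seen in GR19 alone, at 0.362 CPM. Of the markers of other immune cells, Ptprc, found on all leukocytes, had 1, 1 and 0 UMIs, and Cd68 stood at 2.20, 2.12 and 2.29 CPM. Itgam, an integrin of myeloid cells, had 0 UMIs in GR17, 54 in 7 cells of GR18 and 45 in 4 cells of GR19, of which a single cell held 42. Cluster C held 94 of the Itgam UMIs, in 3.85% of its cells. The part of these markers in the values of Ltf and Pglyrp1 was not tested.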

How the data were processed

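Bulk libraries were deposited as raw counts of reads per gene by the authors, and single-cell libraries as UMI counts per gene and well of 384-well plates, with no normalization. The submitters' processing notes name STAR 2.4.2a and HTSeq, with the builds NCBIM37 and mm9. Whether strand was used, and which step used which build, are not given in the sources used here. Positions and symbols are those of GENCODE for GRCm38, matched by identifier.

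Bulk counts went through the quasi-likelihood test of edgeR 4.0.16 under R 4.3.3, after its filterByExpr step and TMM scaling, with Benjamini-Hochberg adjustment and calls at an adjusted p under 0.1. The SE of a log2 fold change is its size over the square root of F. DESeq2 1.42.0 was an alternative. The script was tested on simulated data. ERCC spike-in rows (0.791% to 1.62% of UMIs) were left out, as were wells under 1000 UMIs (15, 15 and 22). All libraries share 384 well barcodes by plate design. No doublet caller was run. Thinning used 5000 UMIs. Clusters came from Seurat 5.3.0 (2000 variable genes without the group's genes, 10 components, 20 neighbours, resolution 0.5).

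The genes, lists and tests were chosen with earlier results of these data known. Named were the 10 genes, called genes of the lists, Prlr, Stat5a, Stat5b, Elf5, the 5 nearest genes of each member seen in at least 10% of cells of each library, markers and Sox4; Lcn2, Mfge8, the immune markers given singly, single cells, the genes leading a cluster and the grouping of clusters by keratins were named after their values were seen.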

Additional observations from a re-analysis of the deposited data

Results flagged for a closer look

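Wfdc2 was higher in the bulk SOX4KO lines (log2 fold change 1.30) and lower in the single-cell SOX4KO libraries (log2 differences of −0.51 in GR18 and −1.29 in GR19). Pglyrp1 was lower in the bulk SOX4KO lines (−0.91) and higher in single cells (1.34 and 1.83). In each case every SOX4KO line or library moved to the same side within its assay, and the difference between assays was not tested.

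The 22 wells of GR19 left out for low UMIs held 25 UMIs of these genes, or 0.485% of their UMIs, against 3 UMIs (0.0665%) in the 15 such wells of control. In the cells kept, the shares were 0.292% in GR19 and 0.102% in control. Of the 25 UMIs, 18 were of Csn3, in 7 wells, and 5 of Csn1s1, in 4 wells, while the left-out wells of control held neither. The source of these UMIs was not tested.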

How the results depend on the processing

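Over all genes, 733 were called in bulk. An edgeR fit of every gene with at least 1 count called 1686 genes, 13 listed lactation genes in place of 7, and 5 members in place of 3, adding Csn3 and Ltf. At an adjusted p under 0.05, 354 genes were called. Leaving out 1 line gave 56 (without WT3) to 1006 genes (without M4), and 130 without WT1, where the lone control line was assumed to vary like the others. For the listed lactation genes this gave 0 (without WT1) to 8 (without H4), and 1 without WT3. The folds of the genes that lost their call could stay close, as for Ehf (−1.24 and −1.41 without WT1 and WT3) and Trf (1.17 and 1.35). Members called ranged from 2 to 4, from which nothing is read since they were chosen with the contrast known. Over the same fits Prlr ranged from −0.32 (without H4) to 0.44 and Stat5a from −0.22 to 0.050 (without WT1). Of 56 alternative values of the members' bulk fold changes, 55 kept their sign, the exception being Wfdc18 without M4. In single cells, all 54 alternative log2 differences kept their sign, and members past 2-fold numbered 2 with 10 CPM added (Pglyrp1 no longer among them) and 4 without either SOX4KO library. Of 54 alternative shares of cells with a UMI (thinned to 2000 or 10000 UMIs, or not thinned, the last chosen after the data were seen), 47 left the main interval, since the share moves with depth. With 20 principal components, 75.3% of Csn1s1 and Csn3 UMIs lay in the clusters with more Krt8 and Krt18. No paired analysis was possible because the lines are independent cultures whose replicate numbers carry no pairing. With 1 control single-cell library, no error between lines could be given.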
